A study of Mus musculus with 6 samples.

Results

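Store-operated calcium entry is represented by 10 genes among the 23886 genes listed in the deposited tables. They were taken by name and mapped to Ensembl identifiers: the channel subunits Orai1, Orai2 and Orai3, the calcium sensors Stim1 and Stim2, the brake Saraf, the inositol trisphosphate (IP3) receptors Itpr1, Itpr2 and Itpr3, and the cation channel Trpc1. All 10 were found, each under 1 identifier, and all 10 passed the filter on low values. Levels come from poly(A) RNA sequencing of AML12, a hepatocyte line established from the liver of a mouse transgenic for transforming growth factor alpha. The compared groups were 3 libraries of AML12 cells kept in a static magnetic field, meaning a field that does not vary in time (SMF 1, 2 and 3), and 3 libraries of AML12 cells with no treatment (Control 2, 3 and 4). The series description calls the cells wild type, and the sources used here state neither how strong the field was nor how long it lasted. The series title speaks of calcium influx, so the comparison asks whether transcripts of this entry pathway differed between exposed and untreated cells.

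In this pathway a receptor at the cell surface activates phospholipase C, which makes IP3, and IP3 receptors then release calcium from the endoplasmic reticulum. STIM proteins span the reticulum membrane, sense the falling calcium inside it, and move to contacts with the plasma membrane, where they open ORAI channels. SARAF turns STIM off again once the store has refilled. In liver cells this entry refills the store between calcium oscillations driven by hormones.

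Library totals, inferred from the FPKM values, were 15514530 to 17969397 reads in SMF libraries and 16601816 to 18200516 in Control libraries. They are the totals that FPKM was scaled by and need not equal sequencing depth. Nearly all lay in listed genes (15475425 of 15514530 in SMF 1). At these totals 1 read in a gene of 1 kilobase was worth 0.0549 to 0.0645 FPKM (fragments per kilobase of gene length, scaled to library size). The 10 genes were covered by 102 reads (Trpc1 in SMF 1) to 7604 reads (Itpr3 in Control 3) per library. Nothing in the labels says that the 3 libraries of a group came from separate cultures, so p-values measure the spread between these libraries, which may be technical. Of 9 measured hepatocyte markers, 6 were at or above 1 FPKM in every library, among them Hnf4a at 91.4 FPKM in SMF and 91.6 FPKM in Control libraries and Alb at 30.4 and 29.2 FPKM, whereas Apoa2 was listed at 0 in all 6 and Apoa1 and Serpina1a stayed under 1 FPKM. The summed hepatocyte level, mostly Krt8 and Krt18, was 3731 to 3937 FPKM in SMF and 3554 to 3754 FPKM in Control libraries. SMF values lay above all Control values for Krt8 (means of 2018 and 1921 FPKM), Afp (1.73 and 1.34 FPKM) and Serpina1a (0.397 and 0.219 FPKM). Of all tested genes, 11.0% lay above in the same way. Afp took 64 to 118 reads per library, and Serpina1a, under the filter, took 5 to 15. Of 4 biliary markers, Krt19, Krt7 and Sox9 were present and Epcam had at most 1 read, with a summed biliary level of 1094 to 1236 FPKM in SMF and 1123 to 1147 FPKM in Control libraries. Of 3 macrophage markers 1 was at or above 1 FPKM in every library, and they summed to 3.40 to 3.73 FPKM in SMF and 2.99 to 4.33 FPKM in Control libraries. Summed stellate cell and fibroblast markers stayed at or under 1.94 FPKM, and endothelial markers at or under 0.169 FPKM, in every library.

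Itpr3 and Saraf were the most abundant of the 10 transcripts and Trpc1 the least. Mean FPKM over the 6 libraries ran from 46.1 for Itpr3 through 31.0 for Saraf, 13.7 for Orai1, 13.5 for Orai3, 7.03 for Stim2, 6.29 for Stim1, 4.80 for Itpr2, 4.03 for Orai2 and 1.40 for Itpr1 to 1.04 for Trpc1. On this deposited scale the order of 7 of the 9 neighbouring pairs was the same in 6 of 6 libraries. Orai1 and Orai3 did not differ beyond their spread, since Orai1 was the higher in 3 of 6 libraries. Stim2 exceeded Stim1 in 5 of 6 libraries, with a mean log2 ratio of 0.15 that equalled its SD of 0.15. Itpr3 lay above 89.7% of the tested genes in mean FPKM and Saraf above 83.6%, while Itpr1 lay above 5.79% and Trpc1 above 1.21%. The order depended in part on gene length. With reads pooled over libraries and divided by the length of the longest coding transcript, Saraf ranked above Itpr3, Stim1 above Orai3, and Orai2 above Itpr2. These orders did not hold in every library. Saraf lay below Itpr3 in Control 3, and Stim1 and Orai3 were both at 14.5 FPKM in SMF 3. Orai2 and Itpr2 were nearly level (6.14 and 6.09 FPKM), with Orai2 the lower in Control 2 and Control 4.

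**Figure D1:**
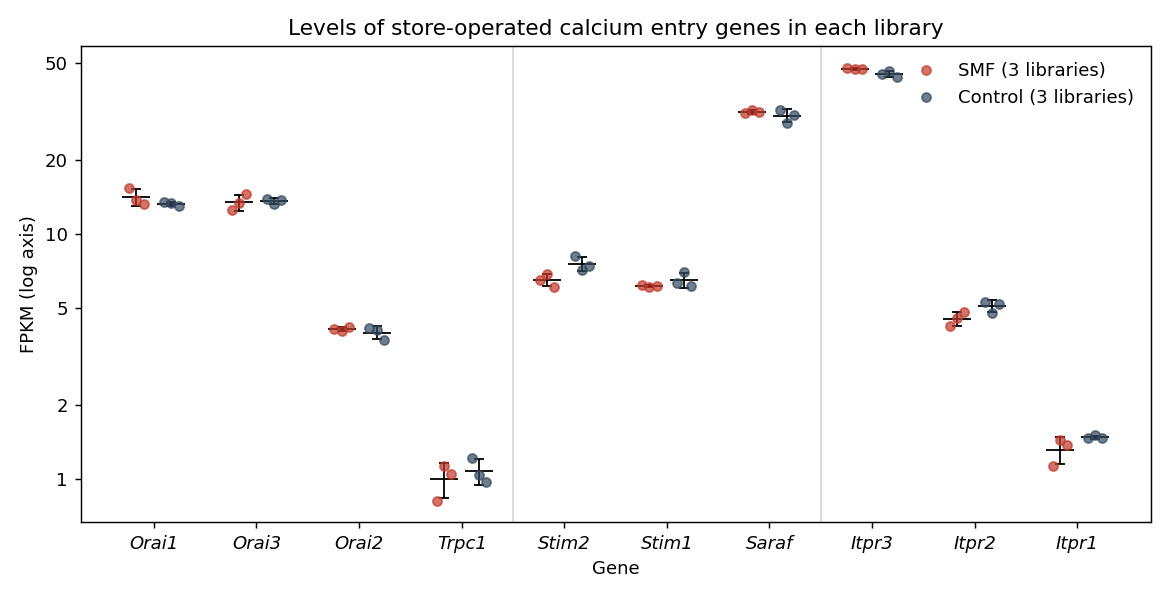
FPKM (log axis) of the 10 genes in each library, with SMF libraries left of Control libraries; bars are the group mean ± SD (n = 3 libraries each). Itpr3 and Saraf stood highest, Orai1 and Orai3 shared a level near 13 FPKM, and Itpr1 and Trpc1 lay near 1 FPKM in both groups.

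IP3 receptor transcripts were mostly Itpr3 (ENSMUSG00000042644, chromosome 17). Its FPKM was 47.7, 47.0 and 46.9 in SMF 1, 2 and 3, against 45.1, 46.3 and 43.7 in Control 2, 3 and 4. The SMF values all lay above the Control values, by a narrow margin. Itpr3 made up 89.0% ± 0.83 of summed Itpr FPKM in SMF and 87.3% ± 0.70 in Control libraries (SD, n = 3 each). In rat liver the third receptor type is known as the form of bile duct cells, whereas hepatocytes carry mainly the first and second. Whether the biliary keratins given above bear on the Itpr3 level was not tested.

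Itpr2 (ENSMUSG00000030287, chromosome 6), a main receptor of rat hepatocytes, followed at a far lower level. It measured 4.22, 4.56 and 4.79 FPKM in SMF 1, 2 and 3, against 5.30, 4.77 and 5.18 FPKM in Control 2, 3 and 4, and the groups overlapped only through SMF 3 and Control 3. Itpr1 (ENSMUSG00000030102, chromosome 6), the receptor known best from neurons, measured 1.13, 1.45 and 1.38 FPKM in the SMF libraries and 1.47, 1.51 and 1.48 FPKM in the Control libraries. All SMF values of Itpr1 lay below the Control values, SMF 1 farthest, at 320 reads against 447 to 504 reads in Control libraries.

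The FPKM of Itpr3 was 10.5 ± 0.78 times that of Itpr2 in SMF and 8.89 ± 0.72 times in Control libraries (SD, n = 3 each). The ratio was 11.3, 10.3 and 9.78 in SMF 1, 2 and 3, against 8.50, 9.72 and 8.44 in Control 2, 3 and 4, so the groups did not overlap, with SMF 3 and Control 3 close together. This ratio was set up after its values were seen and carries no test. None of the 3 receptors passed limma over all genes, which called 0% of them at an adjusted p of 0.05. The log2 fold, SMF over Control and on the log2(FPKM + 1) scale as throughout, was 0.07 for Itpr3 (95% interval -0.02 to 0.15, adjusted p = 0.368), -0.14 for Itpr2 (-0.29 to 0.02, adjusted p = 0.316) and -0.10 for Itpr1 (-0.33 to 0.12, adjusted p = 0.600). Without SMF 1 the fold of Itpr1 was -0.04 (adjusted p = 0.894). With a pseudocount of 0.1 in place of 1, the folds of Itpr1 and Itpr2 were both -0.17 (limma adjusted p = 0.61 and 0.31).

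Itpr1 and Itpr2 have 18319 and 14802 annotated exonic bases and Itpr3 has 9019. The 1838 tested genes over 8000 bases, which include all 3 receptors, had a median log2 fold of -0.073, and the 2019 genes up to 2000 bases had 0.072. Itpr3, with its fold of 0.07, lay on the other side of 0 from the median of genes of its length. With each library corrected by loess for length and GC content together, the fold was -0.08 for Itpr2 (adjusted p = 0.644), -0.03 for Itpr1 (adjusted p = 0.932) and 0.04 for Itpr3 (adjusted p = 0.584). The part of length or GC content alone was not tested. No strand marking is stated, and the antisense gene Itpr3os, at 0.319 FPKM in SMF and 0.0759 FPKM in Control libraries, overlaps 2.58% of the exonic bases of Itpr3. The antisense gene Gm44040, at 2.78 FPKM in SMF and 2.12 FPKM in Control libraries, overlaps 0.59% of those of Itpr1.

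Both STIM sensors were present at similar FPKM, and Stim2 had the largest log2 fold of the 10 genes in absolute size. Stim2 (ENSMUSG00000039156, chromosome 5), the more sensitive sensor that responds to small losses of store calcium, measured 6.52, 6.84 and 6.11 FPKM in SMF 1, 2 and 3, against 8.14, 7.14 and 7.41 FPKM in Control 2, 3 and 4. Every SMF value lay below every Control value. Its mean was 6.49 ± 0.37 FPKM in SMF and 7.57 ± 0.52 FPKM in Control libraries, a ratio of 0.858. The log2 fold was -0.19 ± 0.065 (SE), with a 95% interval that spans ratios of 0.789 to 0.971, an unadjusted p of 0.0177 and an adjusted p of 0.208 by limma. Across 17 alternatives its fold stayed between -0.24 and -0.13 and its adjusted p between 0.104 and 0.707, so its direction was the same throughout and it was called in none. Its 95% interval included 0 without SMF 3 (-0.33 to 0.01) and without Control 2 (-0.30 to 0.02). With the same loess correction the fold was -0.14 (adjusted p = 0.393).

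Stim1 (ENSMUSG00000030987, chromosome 7), the sensor that activates ORAI channels most strongly after full store depletion, measured 6.18, 6.06 and 6.12 FPKM in SMF 1, 2 and 3, against 6.30, 6.97 and 6.13 FPKM in Control 2, 3 and 4. The groups overlapped only through Control 4, which lay below SMF 1, while Control 2 and Control 3 lay above every SMF value. Its log2 fold was -0.07 (95% interval -0.20 to 0.07, adjusted p = 0.575). Summed Stim FPKM was 12.6 ± 0.34 in SMF and 14.0 ± 0.45 in Control libraries.

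Which STIM transcript dominated depended on the gene length used. Stim1 took 995 to 1140 reads in SMF and 1083 to 1316 reads in Control libraries, while Stim2 took 519 to 607 and 648 to 694 reads. The deposited FPKM divides Stim1 reads by 10371 bases, the union of the exons of its 9 annotated transcripts, of which the longest coding transcript, at 4362 bases, covers 42.1%. For Stim2 the longest coding transcript covers 96.1% of 5133 bases. Per longest coding transcript, Stim1 averaged 14.6 ± 0.15 FPKM in SMF and 15.4 ± 1.1 FPKM in Control libraries, and Stim2 6.75 ± 0.38 and 7.87 ± 0.54 FPKM. Stim2 was the lower in 6 of 6 libraries on that scale, against 1 of 6 on the deposited scale. Which transcripts AML12 cells use is not given in the gene-level tables, so neither length can be preferred from them.

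ORAI transcripts came mainly from Orai1 and Orai3 in near equal amounts. Orai1 (ENSMUSG00000049686, chromosome 5), the pore subunit of the classical calcium release-activated current, measured 15.4, 13.8 and 13.2 FPKM in SMF 1, 2 and 3, against 13.5, 13.4 and 13.0 FPKM in Control 2, 3 and 4. SMF 1 stood above the rest, and the other libraries overlapped. Orai3 (ENSMUSG00000043964, chromosome 7), a mammalian subunit that forms channels with ORAI1, measured 12.5, 13.4 and 14.5 FPKM in SMF 1, 2 and 3, against 13.9, 13.2 and 13.7 FPKM in Control 2, 3 and 4. Its SMF values spanned the Control range, with SMF 1 lowest and SMF 3 highest. The ratio of Orai1 to Orai3 was 1.23 in SMF 1, 1.03 in SMF 2 and 0.914 in SMF 3, against 0.950 to 1.02 in Control libraries.

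Orai2 (ENSMUSG00000039747, chromosome 5), a subunit known to dampen the current in mouse immune cells, was the minor form at 4.10, 4.03 and 4.17 FPKM in SMF 1, 2 and 3, against 4.14, 4.07 and 3.69 FPKM in Control 2, 3 and 4. Control 4 was the lowest and the other 5 values lay within a narrow band. Of summed Orai FPKM, Orai1 held 44.6% ± 3.3 in SMF and 43.1% ± 0.56 in Control libraries, Orai3 42.4% ± 3.2 and 44.0% ± 1.0, and Orai2 13.0% ± 0.13 and 12.8% ± 0.62 (SD, n = 3 each). The summed level was 31.7 ± 0.42 FPKM in SMF and 30.9 ± 0.58 FPKM in Control libraries. Per longest coding transcript, Orai1 exceeded Orai3 in 6 of 6 libraries, at 1.25 ± 0.14 times its level (SD, n = 6).

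No ORAI gene passed limma over all genes. The 95% interval of the fold spanned ratios of 0.961 to 1.16 for Orai1 (log2 fold 0.08, adjusted p = 0.509), 0.927 to 1.14 for Orai2 (0.04, adjusted p = 0.771) and 0.900 to 1.08 for Orai3 (-0.02, adjusted p = 0.886). With the loess correction the fold of Orai1, whose transcripts average 60.8% GC, was -0.03 (adjusted p = 0.832).

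**Figure D2:**
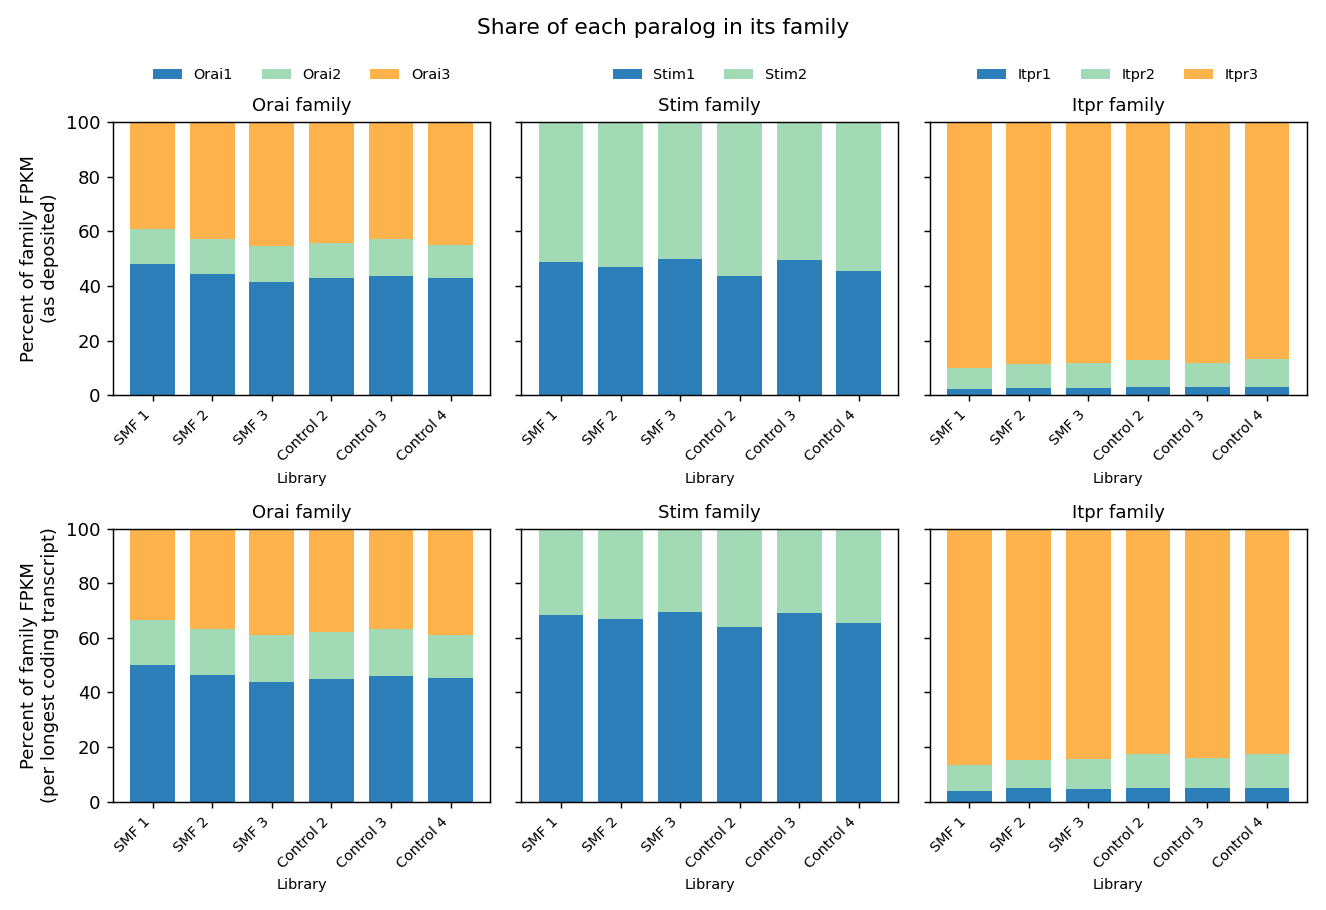
Percent of summed family FPKM from each paralog in each of the 6 libraries, on the deposited FPKM scale (top) and per longest coding transcript (bottom). Itpr3 held 86.8% to 89.9% of Itpr FPKM as deposited, Orai1 and Orai3 shared most of the Orai FPKM, and Stim1 held the larger Stim share in every library per longest coding transcript.

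Saraf (ENSMUSG00000031532, chromosome 8), the reticulum protein that inactivates STIM, was more abundant than both sensors together. It measured 31.0, 32.1 and 31.4 FPKM in SMF 1, 2 and 3, against 32.0, 28.4 and 30.7 FPKM in Control 2, 3 and 4. The SMF values lay within the Control range except SMF 2, which stood just above Control 2. Its log2 fold was 0.05 (95% interval -0.06 to 0.17, adjusted p = 0.597). The FPKM of Saraf was 4.86 ± 0.24 times that of Stim2 in SMF and 4.02 ± 0.11 times in Control libraries (SD, n = 3 each), with no overlap between 4.70, the lowest SMF ratio, and 4.15, the highest Control ratio; this ratio was chosen after its values were seen and carries no test. Against Stim1 the ratio was 5.15 ± 0.15 in SMF and 4.73 ± 0.56 in Control libraries, and the groups overlapped. Per longest coding transcript the ratio of Saraf to Stim1 was 3.45 ± 0.097 in SMF and 3.17 ± 0.38 in Control libraries. On that scale the ratio to Stim2 was 7.45 ± 0.36 in SMF and 6.16 ± 0.17 in Control libraries.

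Trpc1 (ENSMUSG00000032839, chromosome 9), a cation channel subunit that STIM proteins can also engage, was near the limit of the filter. It measured 0.819, 1.13 and 1.05 FPKM in SMF 1, 2 and 3, against 1.22, 1.04 and 0.972 FPKM in Control 2, 3 and 4. The groups overlapped, with SMF 1 lowest at 102 reads, where counting error alone is 9.9%. Its log2 fold was -0.05 (95% interval -0.32 to 0.21, adjusted p = 0.828), which spans ratios of 0.800 to 1.16. With a pseudocount of 0.1 in place of 1 the interval spanned ratios of 0.652 to 1.33.

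As a set, none of the 10 genes passed limma over all genes at an adjusted p of 0.05, where 0 of 11114 genes passed (0%). At an unadjusted p under 0.05, 1 of the 10 passed (Stim2), against 1998 of 11114 genes (18.0%). With limma-voom on recovered reads, again 0 of the 10 passed, against 484 of 11056 genes (4.38%). The groups did not overlap for 3 of the 10, against 23.7% of all tested genes. Itpr3 alone lay above (11.0% of all genes did), and Stim2 and Itpr1 lay below (12.7% of all genes did). With 10 genes these counts are not set apart from the background. A fold above 0 was seen in 4 of the 10 and below 0 in 6, with a median of -0.04, beside 53.3% of all genes below 0 and a median of -0.010 over all genes tested. Without SMF 1 the split was 6 above and 4 below, with a median of 0.02. The median was also 0.02 over the 6 genes left at a filter of 5 FPKM, and -0.08 after TPM scaling, where the median of all genes was -0.043. In libraries of whole cultures, fewer cells that carry a transcript and less transcript per cell cannot be told apart.

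**Figure D3:**
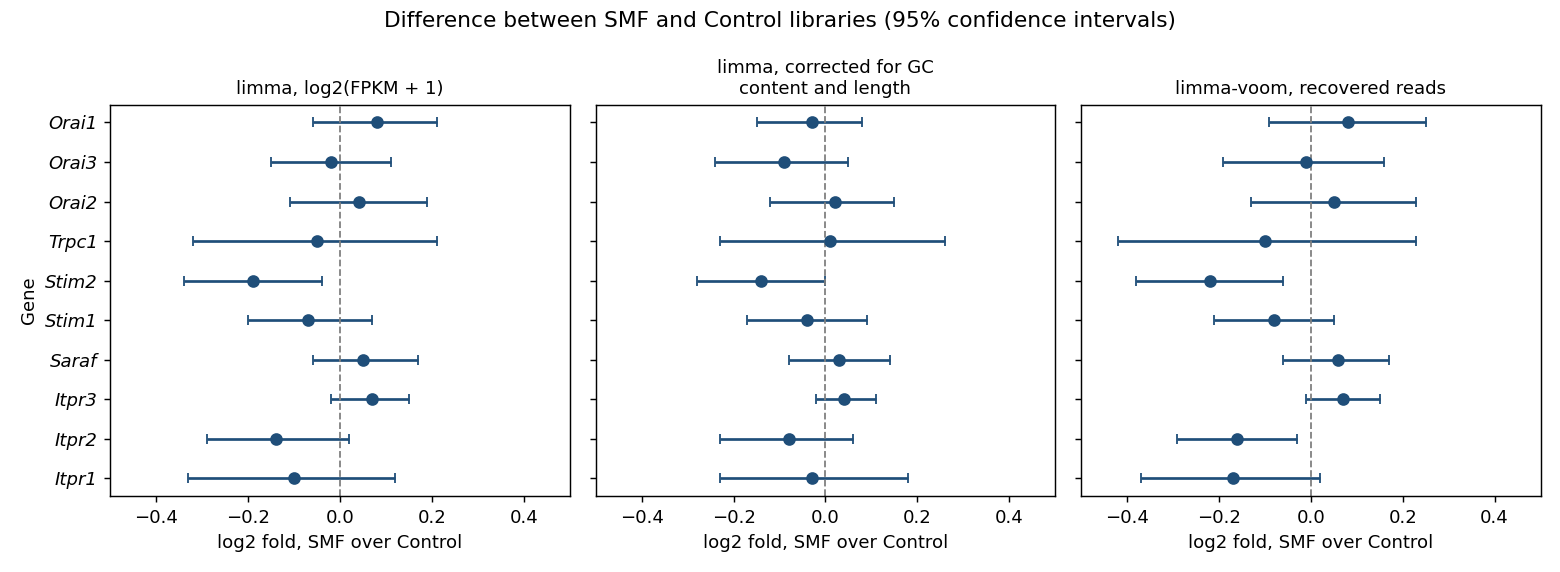
Log2 fold of SMF over Control with 95% confidence intervals for the 10 genes (n = 3 libraries each) by limma on log2(FPKM + 1), by limma after the loess correction, and by limma-voom on recovered reads (log2 of reads scaled to library size). Unadjusted intervals excluded 0 for Stim2 in all 3 panels, only just after the loess correction (upper end -0.00), and for Itpr2 by limma-voom; no adjusted p was under 0.05.

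The genes around these 10 in the pathway were followed through 5 lists. None of their measured members passed limma over all genes. Among STIM and ORAI regulators, 18 of 19 were listed and 10 tested, 2 with a fold above 0 and 8 below (median -0.11). The most abundant was Pdia3, a disulfide isomerase of the reticulum, at 179 ± 2.0 FPKM in SMF and 182 ± 5.6 FPKM in Control libraries. Cav1, the caveolae protein, was next at 60.4 ± 4.5 and 65.6 ± 3.1 FPKM. After scaling all libraries to a common total (TPM) the median of this list was -0.14, beside -0.043 for all genes tested. With the loess correction it was -0.05, with 4 above 0 and 6 below.

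Among IP3 receptor partners and turnover factors, 22 of 23 were listed and 16 tested, 5 with a fold above 0 and 11 below (median -0.07). Grina, a reticulum protein that binds IP3 receptors, was the most abundant at 184 ± 8.2 FPKM in SMF and 162 ± 5.1 FPKM in Control libraries. Its log2 fold was 0.18 (limma adjusted p = 0.161). Mcl1, a survival protein of the BCL2 family, was at 56.3 ± 1.4 FPKM in SMF and 57.4 ± 1.5 FPKM in Control libraries.

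Of the phospholipase C isoforms, 14 of 15 were listed and only Plcd3, Plcb3, Plcg1 and Plch1 passed the filter. Plcd3 was at 56.6 ± 4.1 FPKM in SMF and 55.9 ± 2.4 FPKM in Control libraries. Plcb3, the isoform driven by G protein-coupled receptors, was at 23.0 ± 0.55 and 22.9 ± 1.3 FPKM. Of the 4 folds, 2 were above 0 and 2 below, with a median of -0.03. All 4 were below 0 with the loess correction (median -0.07) and after TPM scaling (median -0.06). Of all genes tested, 49.9% were below 0 with the loess correction. After TPM scaling 63.1% were (median -0.043).

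Genes of reticulum-plasma membrane contacts and phosphoinositide supply had 22 of 24 listed and 20 tested, 13 above 0 and 7 below (median 0.03, and 0.00 after TPM scaling). Vapa and Vapb, tethers of the reticulum, were at 30.9 ± 0.47 and 26.1 ± 0.67 FPKM in SMF, against 32.2 ± 1.5 and 24.7 ± 0.13 FPKM in Control libraries. In the calcineurin and NFAT arm, which ORAI currents switch on in many cells, 11 of 12 were listed and 9 tested, 1 above 0 and 8 below (median -0.07). With the loess correction that split was 4 above and 5 below (median -0.03). Ppp3r1, the regulatory subunit of calcineurin, was at 23.1 ± 1.0 FPKM in SMF and 25.5 ± 2.8 FPKM in Control libraries. Rcan1, a calcineurin inhibitor whose transcription NFAT drives, was at 11.5 ± 0.43 and 11.0 ± 0.29 FPKM.

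**Figure D4:**
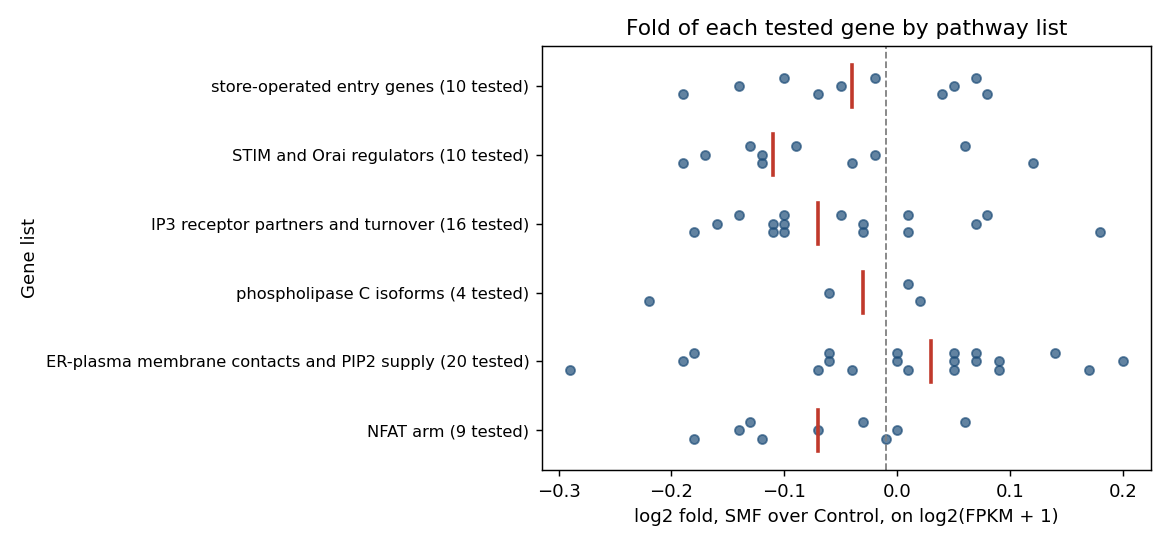
Log2 fold of SMF over Control for each tested gene of the 10 entry genes and of 5 pathway lists (limma on log2(FPKM + 1)); red bars are list medians and the dashed line is the median of all 11114 genes tested, -0.010. List medians ran from -0.11 for STIM and ORAI regulators to 0.03 for contact site genes.

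By limma-voom, 6 genes of these lists passed, named here after their values were seen, beside 4.38% of all genes tested. Of STIM and ORAI regulators 0 of 10 passed, of IP3 receptor partners 1 of 16 and of phospholipase C isoforms 1 of 4. Of contact site genes 3 of 20 passed, and of the NFAT arm 1 of 9. These shares were not tested against the background. Grina was higher (log2 fold 0.18, adjusted p = 0.0191). Lower were Plch1, a phospholipase C (-0.23, adjusted p = 0.0316), Nfat5, the tonicity-responsive factor (-0.20, adjusted p = 0.0328), and the contact site genes Osbpl8 (-0.41, adjusted p = 0.0414), Esyt2 (-0.20, adjusted p = 0.0477) and Efr3a (-0.20, adjusted p = 0.0499). All 5 lower genes had their lowest value in SMF 1, where Osbpl8 was at 1.48 FPKM against 2.09 to 2.70 FPKM in the other libraries. Efr3a overlapped between the groups, at 11.0 FPKM in SMF 2 and 10.9 FPKM in Control 2. The 5 lower genes have 8637 to 18378 exonic bases and Grina has 2067. Limma on log2(FPKM + 1) called none of the 6, with a fold of 0.18 for Grina as given above and folds of -0.29 (Osbpl8) to -0.18 for the 5 lower genes (adjusted p = 0.193 to 0.245). With the loess correction added to limma, Grina had a log2 fold of 0.07 (adjusted p = 0.476), and the 5 lower genes had folds of -0.18 to -0.07 (adjusted p = 0.351 to 0.618).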

How the data were processed

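The authors deposited FPKM values, 1 file per library, for 23886 Ensembl genes. Per the submitters' processing notes, processing named HISAT2 2.1.0, Bowtie2 2.2.3 and the genome build GRCm39. Which program counted reads, and on which annotation, is not given in those sources. Per the labels' protocols, libraries were made from oligo(dT)-captured mRNA. Symbols, chromosomes and exon lengths came from GENCODE M21 (build GRCm38), so no coordinates are given. Library totals were inferred from the step in FPKM times exon length that was taken as 1 read. Reads were recovered as FPKM times exon length and library total, and were whole within 0.02 in all 6 libraries for 98.078% of 21748 genes. For Saraf, 6 of the lengths searched gave whole reads, and the smallest, 2965 bases, replaced 2929. Its reads and its levels per longest coding transcript rest on that choice.

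Genes at or above 1 FPKM in at least 3 of 6 libraries were tested with limma 3.58.1 (R 4.3.3) on log2(FPKM + 1), two-sided and with the trend option, Benjamini-Hochberg adjusted over all 11114 genes. Alternatives were limma-voom on recovered reads, other pseudocounts, filters and scalings, a loess correction (span 0.3) for GC content and length (99.47% of tested genes had both), a replicate block, and leaving out each library. Levels per longest coding transcript were added after seeing the data. The 10 genes and the lists were chosen with earlier results of these data known. From each list, genes that passed or else the 2 most abundant were named. Results of 1 further list are not reported here. limma and limma-voom were tested on simulated data. Figures used matplotlib 3.10.9.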

Additional observations from a re-analysis of the deposited data

How the results depend on the processing

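None of the 10 genes was called under the main setting or any of 17 alternatives, and Stim1, Stim2, Saraf, Itpr2 and Itpr3 kept their direction in all that could be fitted. At a filter of 5 FPKM, Orai2, Itpr1, Itpr2 and Trpc1 were not tested. The replicate block fits a level for each library number, and SMF 1 and Control 4 carry numbers found in their own group only. Its folds therefore rest on the libraries numbered 2 and 3 and leave little residual spread to measure. With the replicate block alone Orai1 had a fold of 0.00. The sign changed for Orai1 with the GC content and length correction (-0.03, and -0.06 with the replicate block), for Orai2 with the replicate block (-0.00), with the block and correction (-0.01) and without Control 4 (-0.00), for Orai3 with the replicate block (0.03) and without SMF 1 (0.03), for Itpr1 with the block and correction (0.01), and for Trpc1 with the correction (0.01), the block and correction (0.02) and without SMF 1 (0.01). Leaving out 1 library in turn gave 0.02 (without SMF 1) to 0.12 (without SMF 3) for Orai1, 0.01 (without Control 3) to 0.09 for Saraf, -0.10 to -0.02 (without Control 3) for Stim1, -0.15 to -0.04 (without SMF 1) for Itpr1, -0.00 to 0.06 for Orai2, -0.07 to 0.03 for Orai3 and -0.10 to 0.01 for Trpc1. The cause was not tested. Over all genes, 0 were called higher and 0 lower by limma, against 232 and 252 by limma-voom and 6 and 2 at a filter of 5 FPKM. With the replicate block the counts were 13 higher and 6 lower, and 3 higher with the block and correction. Leaving out 1 library gave 0 to 2 higher and 0 to 1 lower. Only numbers 2 and 3 are shared by the groups, and same-numbered libraries deviated together weakly (correlations of 0.058 and 0.046, against -0.148 to 0.107 between other numbers), so the numbers were not taken to pair the libraries. In reads rather than FPKM, Orai1 held 37.6% of its family in SMF and 36.5% in Control libraries, Stim2 34.4% and 36.7%, and Itpr3 82.4% and 79.8%. Per longest coding transcript Orai1 held 45.3% in Control libraries, Stim2 31.7% in SMF and 33.9% in Control libraries, and Itpr3 85.3% and 83.1%. Leaving out 1 library in turn, the Orai1 share ranged from 42.9% to 46.2% in SMF and from 42.8% to 43.3% in Control libraries. Counting error at the lowest read number was 9.9% for Trpc1 and at most 5.6% for the other genes.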
